A study of Mus musculus with 12 samples.

Results

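RNA of the prefrontal cortex was compared between mice killed at Zeitgeber time 15 (ZT15), 3 h after lights off, and mice killed at ZT3, 3 h after lights on. All 3 ZT15 arrays and all 3 ZT3 arrays were taken, 6 of the 12 arrays of the series, and 54.5% of the 45037 probe sets that are not array controls were bright enough to be tested. The remaining 6 arrays, from ZT9 and ZT21, entered the estimate of the spread and served for comparison. Both groups were wild-type C57BL/6J mice with no genetic or drug treatment, 10 weeks old when obtained and entrained to a 12:12 light-dark cycle with free access to food and water. The ZT3 mice were killed in the light and the ZT15 mice under red light. RNA from each mouse was hybridized to its own Affymetrix Mouse430_v2 array, so a value is the level in the whole dissected tissue of 1 animal. Zeitgeber time and time since the onset of dark, activity and feeding change together in this design and cannot be told apart.

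Circadian timing in each cell rests on a feedback loop in which the activators Clock and Arntl (also called Bmal1), bound to E-box sequences, switch on the Per and Cry genes, whose proteins then restrain the activators. In the brain this loop runs beside other daily programs. Neuronal firing during wakefulness turns on immediate early genes within minutes, and secretory and protein-folding genes respond to synthetic load. Mice are nocturnal, so ZT15 falls in the active phase and ZT3 in the rest phase.

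ZT15 replicate 3 stood apart from the other compared arrays, at 36.2 on a first principal component that held 39% of the variance over the tested probe sets, against -9.4 and -7.2 for the other ZT15 arrays and -33.3 to -10.4 at ZT3. Its weight in limma's array weighting was 0.386, the lowest of the 6, and that of ZT3 replicate 2 was the highest at 3.76. All pairs of the 12 arrays correlated at 0.991 to 0.998.

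At ZT15, 54 probe sets were higher than at ZT3 (0.22% of those tested) and 0 were lower (0%) at a Benjamini-Hochberg adjusted p under 0.05 by limma, a linear model with a moderated t statistic. At the looser adjusted p of 0.20 there were 563 higher (2.29%) and 67 lower (0.273%). Without adjustment, 2417 probe sets had p under 0.05 on the higher side (9.85%) and 658 on the lower (2.68%). These counts also moved with single mice. At 0.20 there were 44 higher and 0 lower without ZT3 replicate 2, 54 and 1 without ZT3 replicate 3, 101 and 3 without ZT15 replicate 3, and 1048 and 158 without ZT9 replicate 1. Without adjustment, leaving out ZT15 replicate 3 gave 1206 and 340, ZT3 replicate 3 1416 and 350, and ZT3 replicate 2 1625 and 374. Among the probe sets whose 3 ZT15 values all lay on one side of the 3 ZT3 values, 3708 were higher (15.1%) and 1740 lower (7.09%), and an exact permutation test of 3 against 3 mice cannot go below p = 0.1 for any of them. The median difference over all probe sets was 0.049 on the log2 scale, and 90% of them lay between -0.304 and 0.456. The mean intensity of the ZT15 arrays, 360 to 392, was above that of the ZT3 arrays, 344 to 356, with no overlap, and its part in the asymmetry was not tested. With each array centred on its median the split was 60 higher and 4 lower at 0.05, and at 0.20 the higher calls made up 77.3% of all calls in place of 89.4%. After quantile normalization they made up 78.1%. The unadjusted split, with 78.6% on the higher side, was 1706 higher and 1331 lower after centring (56.2%) and 60.1% higher after quantile normalization. With the 6 arrays of ZT3 and ZT15 fitted alone and centred it was 1759 higher and 1922 lower (47.8%).

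**Figure D1:**
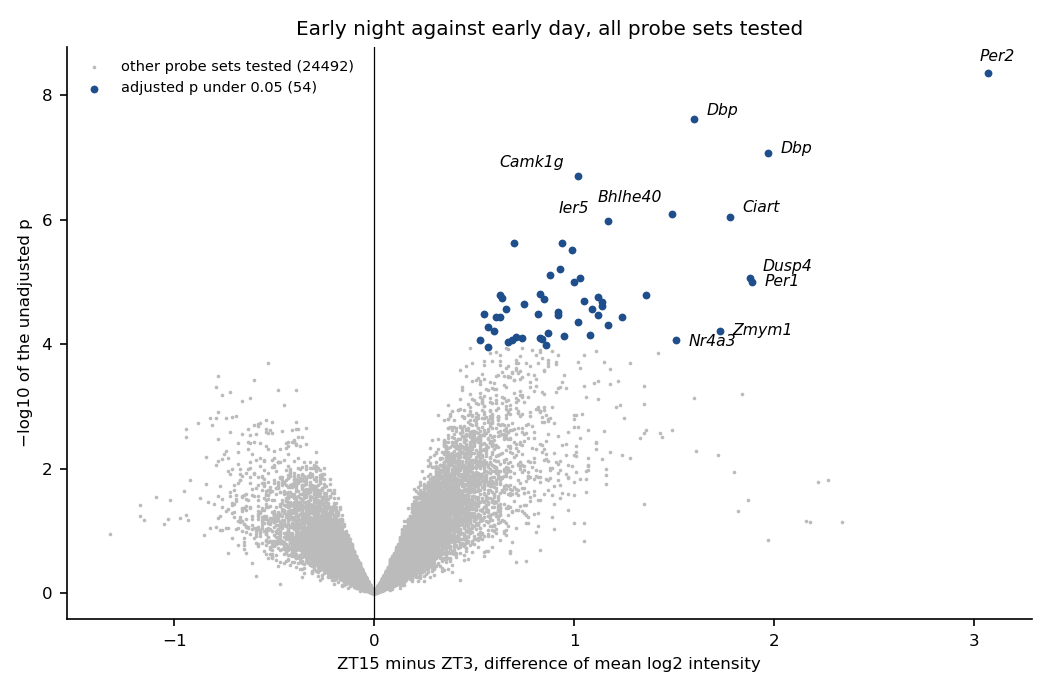
Each point is 1 probe set tested, with the difference of mean log2 intensity between ZT15 and ZT3 on the x axis and the -log10 of the unadjusted limma p on the y axis. The 54 probe sets past the adjusted threshold, in blue, all lie to the right of 0, with Per2 farthest out at 3.07.

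The 54 probe sets named 44 genes, and 2 of them, 1447164_at and 1460113_at, carried no single gene symbol. Their differences ran from 0.53 to 3.07 with a median of 0.93, and 24 exceeded 1, a doubling on the linear scale. Of these probe sets 7, for Per2, Dbp (both probe sets), Camk1g, Bhlhe40, Ciart and Ier5, passed the threshold without each of the 12 arrays in turn. The other 47 lost their call without at least 1 array and without 11 at most, with adjusted p values up to 0.228. The count depended on single animals: of the 54, 19, 10 and 7 remained without ZT3 replicates 1, 2 and 3, and 38, 14 and 17 without ZT15 replicates 1, 2 and 3. Under each setting tried, the probe sets that were measured kept their direction, which was all 54 except with the 15000 brightest, where 45 were measured. In all 54 the ZT15 values lay above the ZT3 values. Leaving out an array or changing the filter, prior or block could therefore not reverse the direction. When the 6 arrays of ZT3 and ZT15 were fitted alone, Per2 was the 1 probe set that passed, and the adjusted p of the others was between 0.0521 and 0.192.

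Markers of cortical layers and neurons were present in the tissue. All 13 cortical layer markers and all 11 neuronal markers on the array were bright enough to test. They were led by Pcp4 (12.79 at ZT3 and 12.93 at ZT15, mean log2 intensity), Lamp5 (12.24 and 12.34), Gad1 (12.67 and 12.88) and Slc17a7 (12.17 and 12.19). None of the 84 marker genes tested passed in its brightest probe set, beside 0.322% of all genes, a share under 1 gene in 84. The markers covered cortical layers, neurons, glia, vessels, choroid plexus, meninges, blood, striatum and olfactory bulb. Their list medians ran from -0.08 for meninges to 0.23 for blood, beside 0.07 for the 11791 genes tested. The log2 of the summed intensity of the cortical layer markers was 14.23 to 14.38 at ZT3 and 14.38 to 14.58 at ZT15. For myelin genes it was 15.30 to 15.32 and 15.37 to 15.51, and for neurons 14.63 to 14.68 and 14.73 to 14.78. Choroid plexus differed most between mice, at 9.60 to 11.05 and 11.21 to 14.20, mainly through Ttr. The other tested members, Clic6 and Sostdc1, were also highest in ZT15 replicate 1 among the 6 mice, at 7.66 and 5.16 against up to 7.27 and up to 4.75 in the others. The defining markers Folr1, Kl, Aqp1, Otx2, Kcne2 and Slc4a5 were below the tested range. Of the 10 striatal markers on the array 8 were tested, with sums of 11.10 to 11.55 and 11.44 to 11.66. For olfactory bulb 2 of 8 were tested, with Eomes, Tbx21, Th, Doc2g, Lhx1 and Sp8 below that range. In such bulk tissue, fewer cells of a type and less RNA per cell cannot be told apart.

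Repressors and output factors of the clock rose at ZT15, with Per2 the largest of all rises. Of 28 genes in the core clock list 23 were tested, and 6 rose: Per1, Per2, Cry1, Ciart, Bhlhe40 and Dbp. By comparison, 0.322% of the 11791 genes passed in the higher direction when each gene was read by its brightest probe set. The median difference of the list was 0.40, 21 of the 23 were higher by any amount (65.4% of all genes), 0 fell (0% of all genes), and 0 were lower at an adjusted p of 0.20 (0.28% of all genes).

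Per2, a repressor of the loop, measured 6.69, 6.21 and 5.93 in the ZT3 mice and 9.28, 9.27 and 9.49 in the ZT15 mice on the log2 intensity scale. The lowest ZT15 mouse was far above the highest ZT3 mouse, and the ZT15 mice lay close together. The rise of 3.07 ± 0.20 (SE, n = 3 and 3), or 8.4-fold, was the largest of all called probe sets (adjusted p = 0.000107 by limma). A second, dimmer Per2 probe set gave 1.24 and did not pass (adjusted p = 0.21).

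Per1, the partner of Per2, measured 6.88, 6.72 and 6.83 at ZT3 and 8.12, 8.62 and 9.36 at ZT15. Its rise of 1.89 ± 0.26 (SE) had an adjusted p of 0.0153 by limma, which went above 0.05 without ZT15 replicate 2 or without any of the ZT3 mice, up to 0.117. Cry1, which binds the Per proteins, went from 7.73, 7.53 and 7.43 to 8.17, 8.26 and 8.76. With a difference of 0.83 ± 0.14 (SE) and an adjusted p of 0.0416, it lay near the threshold and was lost on leaving out any array but ZT15 replicate 1 and ZT9 replicate 1. Both groups were separate for both genes.

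Ciart, also known as Chrono, a repressor that binds the activators, was nearly the same in the 3 ZT3 mice, at 5.84, 5.76 and 5.77. At ZT15 it measured 7.24, 7.49 and 7.97, a rise of 1.78 ± 0.19 (SE, adjusted p = 0.00363 by limma). Bhlhe40 (Dec1), which competes for E-boxes, rose from 9.18, 9.18 and 8.92 to 10.41, 10.60 and 10.73. Its difference was 1.49 ± 0.16 (SE) at the same adjusted p of 0.00363.

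Dbp, a transcription factor that carries the clock's output to genes with D-box sequences, had 2 probe sets and both passed. On the brighter one the ZT3 mice measured 9.55, 9.30 and 9.23 and the ZT15 mice 11.20, 11.11 and 11.69, a difference of 1.97 ± 0.17 (SE, adjusted p = 0.000684 by limma). On the other the difference was 1.60 ± 0.12 (SE). The related factors Tef and Hlf both differed by 0.29 and did not pass (adjusted p = 0.335 and 0.501).

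The remaining clock genes gave smaller differences that did not pass. Per3 differed by 0.73 (adjusted p = 0.129), Nr1d2 (Rev-erb beta) by 0.62 (0.133) and Cry2 by 0.40 (0.134), each with separate groups. Nr1d1 (Rev-erb alpha), which represses Arntl, was 7.03, 7.17 and 7.17 at ZT3 and 8.25, 7.78 and 7.07 at ZT15. One ZT15 mouse was thus within the ZT3 range, and the difference of 0.58 ± 0.30 (SE) had an adjusted p of 0.458. Arntl itself was 8.05, 8.23 and 7.84 against 7.74, 7.64 and 7.93, a difference of -0.27 ± 0.15 (SE, adjusted p = 0.484) with overlapping groups. Its partners Clock and Npas2 differed by 0.03 and 0.02. The nuclear receptors Rora and Rorb, which activate Arntl, differed by 0.09 and 0.53, and Arntl2 by 0.52 (adjusted p = 0.804, 0.298 and 0.283). Nfil3, which opposes Dbp at D-boxes, differed by 0.09. In kinases and ligases of clock proteins, the brightest probe sets gave 0.31 for Csnk1e, 0.12 for Gsk3b, 0.03 for Btrc and -0.20 for Csnk1d. Their adjusted p values by limma ran from 0.47 to 0.946. The probe sets of Csnk1d disagreed in direction, since its others gave 0.52, 0.40, 0.28 and -0.00 (lowest adjusted p = 0.227 by limma).

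**Figure D2:**
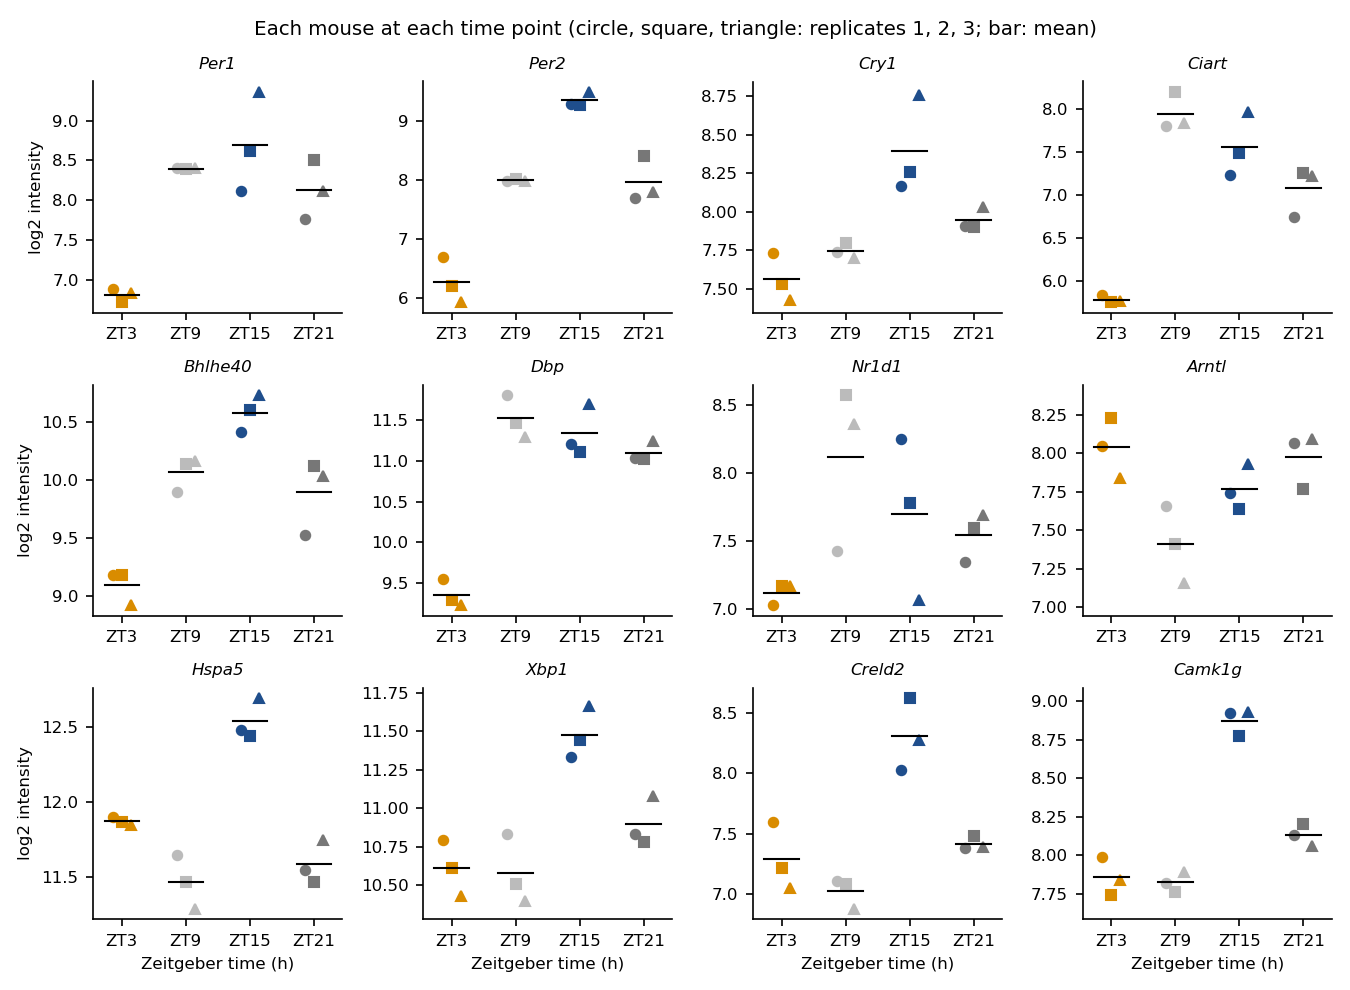
The log2 intensity of 12 genes in each mouse, with 1 panel per gene and the 4 time points on the x axis. The marker shape gives the replicate and the bar the mean of 3 mice. Each gene is read by its brightest probe set, except Xbp1, which is read by its called one. Per2, Hspa5, Xbp1, Creld2, Camk1g and Cry1 were highest at ZT15, whereas Dbp, Ciart and Nr1d1 were highest at ZT9 and Arntl lowest there.

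E-box sequences were looked for in the 300 bases around the start of each gene, 250 before and 50 after, as RefSeq gives them on GRCm38.p6. The palindrome CACGTG, searched on both strands, was present in 7.15% of the 32851 windows, and in a window of 11.7% of the 9528 tested genes that had one. Of the 44 called genes 34 had a window, and 5 of these (14.7%) held the palindrome: Ciart, Coq10b, Cry1, Per1 and Pfkfb3. The D-box TTATGTAA was in 0.938% of windows, in 0.714% of these tested genes and in 2 called genes (5.88% of the 34), Coq10b and Jdp2. The cyclic AMP response element TGACGTCA was in 1.79% of windows, in 3.58% of these tested genes and in 1 called gene (2.94% of the 34), Sstr2. One form of the serum response element (0.0639% of windows), a heat shock element (0.603%), a ROR response element (0.219%) and an Egr site (GCGTGGGCG, 0.612%) were in 0 of the 34. By tested gene their shares were 0.0105%, 0.588%, 0.168% and 1.41%. The windows of the 3 clock repressors with an E-box are shown, since these genes rose and their regulation through this sequence is the textbook case. Capitals mark CACGTG, and a match describes the letters and does not show binding.

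Ciart, chr3:95882179-95882478, minus strand: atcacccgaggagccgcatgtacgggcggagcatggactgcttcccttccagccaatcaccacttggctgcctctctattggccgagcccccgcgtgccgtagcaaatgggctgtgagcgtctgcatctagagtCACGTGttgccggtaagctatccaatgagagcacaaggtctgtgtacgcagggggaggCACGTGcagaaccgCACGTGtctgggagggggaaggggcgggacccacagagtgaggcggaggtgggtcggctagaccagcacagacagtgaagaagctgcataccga
Per1, chr11:69098699-69098998, plus strand: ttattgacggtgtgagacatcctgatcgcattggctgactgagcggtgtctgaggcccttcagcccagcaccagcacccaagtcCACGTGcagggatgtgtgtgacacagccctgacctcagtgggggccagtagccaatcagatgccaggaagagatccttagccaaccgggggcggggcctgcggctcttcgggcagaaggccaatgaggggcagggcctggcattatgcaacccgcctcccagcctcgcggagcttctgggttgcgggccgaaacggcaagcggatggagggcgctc
Cry1, chr10:85185005-85185304, minus strand: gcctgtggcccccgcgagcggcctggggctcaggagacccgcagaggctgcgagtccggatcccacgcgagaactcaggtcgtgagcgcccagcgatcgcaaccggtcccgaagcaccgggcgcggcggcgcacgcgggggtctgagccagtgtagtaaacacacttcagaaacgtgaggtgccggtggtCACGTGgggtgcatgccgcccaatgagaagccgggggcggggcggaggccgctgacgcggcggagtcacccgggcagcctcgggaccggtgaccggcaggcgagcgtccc

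Ciart held 3 copies, which begin 116, 58 and 44 bases before the start. Per1 held 1 copy that begins 166 bases before one of its starts, and Cry1 1 copy that begins 60 bases before its start. Neither Per2 nor Bhlhe40 had a window in the table used here.

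In the lists made for genes that respond to neuronal activity, 3 members of the immediate early list and 4 of the effector list rose. Whether each member responds to activity in this tissue was not tested. Fos, Arc and other strongly inducible genes varied too widely between mice to pass. Of the 29 immediate early transcription factors tested 3 passed (Ier5, Nr4a3 and Jdp2), beside 0.322% of all genes. At an adjusted p of 0.20, 6 passed (2.51% of all genes). At an unadjusted p under 0.05, 22 were higher (10.9% of all genes) and 1, Jun, was lower (2.5%). The median difference of the 29 was 0.77. The median deviation of the list from each gene's mean over 12 arrays was -0.551, -0.614 and -0.117 in the ZT3 mice and -0.154, 0.378 and 0.900 in the ZT15 mice. ZT15 replicate 3 was the highest of the 6, and ZT15 replicate 1 was below ZT3 replicate 3. The list's median difference was 1.21 without ZT15 replicate 1 and 0.48 without ZT15 replicate 3.

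Fos, a subunit of the transcription factor AP-1 and the usual marker of recent firing, measured 7.54, 8.62 and 10.59 at ZT3 and 8.99, 10.97 and 12.25 at ZT15. The lowest ZT15 mouse was below the highest ZT3 mouse, and the difference of 1.82 ± 0.82 (SE) did not pass (adjusted p = 0.395 by limma). Arc, whose protein acts at active synapses, gave 7.26, 8.66 and 10.41 against 9.37, 11.36 and 12.42, a difference of 2.27 ± 0.80 (SE, adjusted p = 0.285). Junb (1.87), Egr2 (1.80), Nr4a1 (1.72) and Dusp1 (1.35) overlapped between the groups in the same way, with adjusted p values of 0.211 to 0.37. In Npas4, which is induced by calcium entry alone, the difference was 0.43 ± 0.85 (SE), with a ZT15 mouse at 5.09 below all ZT3 mice.

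Ier5, an immediate early response gene, passed with all 3 of its probe sets. On the brightest the ZT3 mice measured 10.13, 10.18 and 10.04 and the ZT15 mice 11.04, 11.22 and 11.57. The rise of 1.17 ± 0.13 (SE, adjusted p = 0.00363 by limma) was kept without each of the 12 arrays, and the other probe sets gave 1.12 and 1.17.

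Nr4a3 (Nor1), an orphan nuclear receptor, rose from 7.93, 7.56 and 7.36 to 8.73, 9.01 and 9.61, by 1.51 ± 0.26 (SE, adjusted p = 0.0416 by limma). Jdp2, which dimerizes with Jun proteins and represses AP-1 targets, went from 9.33, 9.26 and 9.14 to 9.88, 9.92 and 10.46, by 0.84 ± 0.14 (SE) at the same adjusted p. Both lost their call without any of the ZT3 mice, without ZT15 or ZT9 replicate 2 or 3 and without ZT21 replicate 3. Egr1 (1.15, adjusted p = 0.057) and Klf10 (1.18, 0.0624) lay just outside the threshold with separate groups. Jun, a partner of Fos in AP-1, lay on the other side, with differences of -0.54 and -0.72 on its 2 probe sets (adjusted p = 0.371 and 0.0882). The dimmer of these passed with arrays centred on their medians, at -0.79 (adjusted p = 0.0415).

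**Figure D3:**
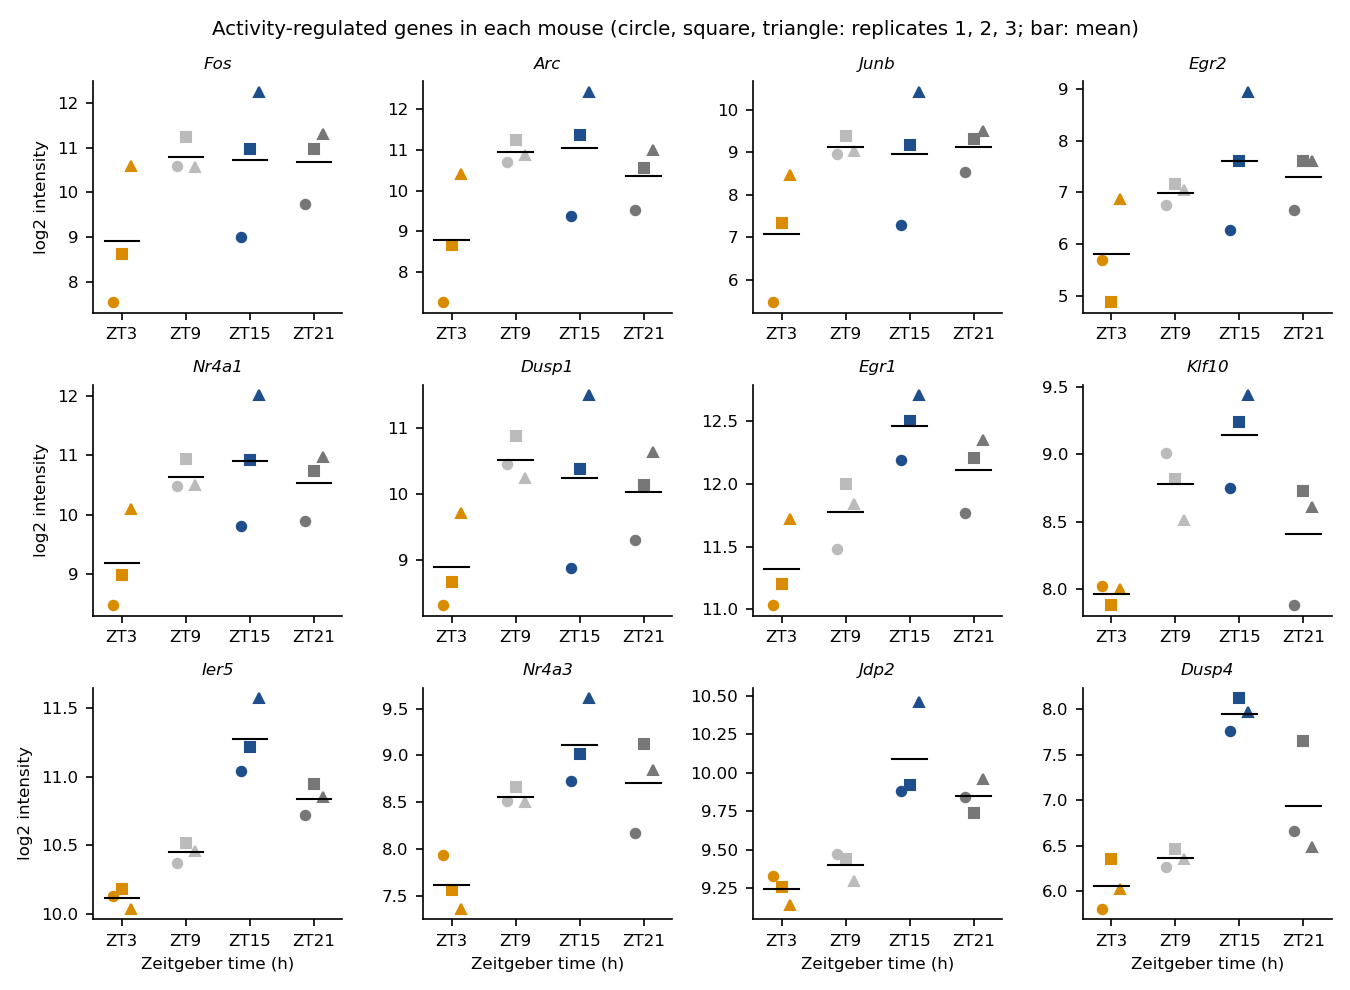
The log2 intensity of 12 activity-regulated genes in each mouse, by time point, with marker shape for the replicate and a bar for the mean of 3 mice. In the first 6 panels, Fos to Dusp1, the ZT3 and ZT15 mice overlap and span several log2 units, whereas Ier5, Nr4a3, Jdp2 and Dusp4 in the bottom row are separate.

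Of 34 activity-regulated effectors tested, 4 passed, beside 0.322% of all genes: Camk1g, Trib2, Sbk1 and Dusp4. The paper had already reported Camk1g, Sbk1 and Dusp4 as diurnal from these arrays, with similar patterns by real-time PCR in independent mice. The list was made with earlier results known, so this count is not independent support. At an adjusted p of 0.20, 13 passed (2.51% of all genes), all of them higher, and the median difference was 0.48 (0.32 without ZT15 replicate 3). Camk1g, a calcium/calmodulin-dependent kinase of neurons, measured 7.99, 7.74 and 7.84 at ZT3 and 8.92, 8.77 and 8.93 at ZT15. The groups were narrow and separate, and the rise of 1.02 ± 0.09 (SE, adjusted p = 0.0012 by limma) was kept without each array.

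Trib2, a pseudokinase, rose from 9.28, 9.15 and 8.94 to 10.19, 10.19 and 9.96, and its second probe set gave 0.67 (adjusted p = 0.0692). Sbk1, a brain serine/threonine kinase, went from 9.63, 9.59 and 9.43 to 10.32, 10.44 and 10.67. The calls of both were lost without ZT3 replicate 2 or 3, and that of Sbk1 also without ZT15 replicate 2. The neurotrophin Bdnf differed by 0.80 with separate groups (adjusted p = 0.0683), and the kinase Plk2 by 0.55 (0.141). Homer1, a postsynaptic scaffold with a short activity-induced isoform, had 6 probe sets with differences from 0.08 to 0.85, none of which passed (lowest adjusted p = 0.0646).

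Inhibitors that restrain the MAP kinase cascade after a stimulus were among the genes that rose. Of 19 tested, Dusp4 and Spred2 passed (0.322% of all genes), 7 passed at 0.20 (2.51%), 12 were higher at an unadjusted p under 0.05 (10.9%), and the median difference was 0.45. Dusp4, a nuclear phosphatase of MAP kinases, measured 5.81, 6.35 and 6.03 at ZT3 and 7.76, 8.12 and 7.97 at ZT15. That rise of 1.88 ± 0.25 (SE, adjusted p = 0.015 by limma) was lost without ZT3 replicate 1 or 3 or ZT15 replicate 2 or 3, at up to 0.0928. Spred2, which blocks Raf activation, passed with 2 of its 5 probe sets (0.85 and 0.92), while the others gave 0.36 to 0.47. The brighter of the called pair measured 10.36, 10.27 and 10.15 at ZT3 and 11.00, 11.06 and 11.27 at ZT15. Errfi1, an inhibitor of the EGF receptor, differed by 0.59 (adjusted p = 0.0809 by limma), Spry2 by 0.56 (0.13) and Dusp6 by 0.97 (0.158). A second Errfi1 probe set gave 0.21 (0.554). The lowest member was Dusp16, at -0.48 (0.431). With separate groups, 10 of the 19 were higher and 2 lower, beside 17.2% and 6.78% of all genes.

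Among protein-folding genes of the endoplasmic reticulum (ER), the chaperone Hspa5, its regulator Xbp1 and Creld2 rose at ZT15. Of 42 genes tested, Creld2 and Hspa5 passed in their brightest probe set (0.322% of all genes) and Xbp1 in another of its 4. At 0.20, 5 passed (2.51% of all genes), and 15 were higher at an unadjusted p under 0.05 (10.9%). The median difference was 0.17, and 0.07 after quantile normalization. Hspa5 (BiP), the main chaperone of the ER lumen, was 11.90, 11.87 and 11.85 at ZT3 and 12.48, 12.44 and 12.69 at ZT15. The differences of its called probe sets were 0.67 ± 0.11 and 0.63 ± 0.09 (SE, adjusted p = 0.0442 and 0.0206 by limma), and its dimmest probe set gave 0.03.

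Creld2, a secreted ER stress protein, measured 7.60, 7.22 and 7.05 at ZT3 and 8.03, 8.62 and 8.28 at ZT15 (difference 1.02 ± 0.16, SE, adjusted p = 0.0297). Xbp1, the factor that is spliced upon ER stress and drives chaperone genes, went from 10.79, 10.61 and 10.43 to 11.33, 11.44 and 11.66 on the called probe set (0.87 ± 0.14, SE, adjusted p = 0.0383). Its brightest probe set gave 0.68 (adjusted p = 0.119). Without ZT3 replicate 2 or 3 or ZT15 replicate 2 or 3, none of the called probe sets of these 3 genes passed. Manf, an ER-resident trophic factor, differed by 1.03 (0.0608) and the co-chaperone Dnajc3 by 0.78 (0.0807). At the low end were the calnexin gene Canx (-0.14) and Pdia4 (-0.10).

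The ER stress response element, CCAAT and CCACG with any 9 bases between them, searched on both strands, was in 0.119% of the 32851 windows and in a window of 13 of the 9528 tested genes (0.136%). It was in 2 of the 34 called genes with a window, Hspa5 and Creld2. Its first letters are a CCAAT box, which alone was in 37.4% of windows, in 42.7% of the 9528 tested genes and in 17 of the 34 (50%). Both windows are shown because they hold the factor site named for this response, with the element in capitals and, in Creld2, read on the opposite strand.

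Hspa5, chr2:34771840-34772139, plus strand: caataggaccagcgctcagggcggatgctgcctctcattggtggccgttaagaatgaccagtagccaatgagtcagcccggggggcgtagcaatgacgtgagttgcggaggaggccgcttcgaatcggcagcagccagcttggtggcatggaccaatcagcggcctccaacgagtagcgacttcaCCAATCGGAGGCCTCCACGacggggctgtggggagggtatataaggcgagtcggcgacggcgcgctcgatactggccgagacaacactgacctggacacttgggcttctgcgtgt
Creld2, chr15:88819396-88819695, plus strand: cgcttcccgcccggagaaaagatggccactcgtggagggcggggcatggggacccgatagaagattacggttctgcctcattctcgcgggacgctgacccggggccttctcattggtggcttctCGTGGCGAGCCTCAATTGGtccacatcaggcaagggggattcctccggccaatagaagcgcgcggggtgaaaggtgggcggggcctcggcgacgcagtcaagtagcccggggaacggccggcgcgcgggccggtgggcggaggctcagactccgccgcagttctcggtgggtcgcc

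The element begins 65 bases before the start of Hspa5 and 126 before that of Creld2. The window of the table for Xbp1 held neither this element nor an E-box.

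Cytosolic chaperones gave 1 call. Of 31 heat shock genes tested 1 passed, Dnajb5, beside 0.322% of all genes. Dnajb5, an Hsp40 co-chaperone of brain and heart, measured 10.23, 10.17 and 10.16 at ZT3 and 10.98, 11.34 and 11.66 at ZT15. Its rise was 1.14 ± 0.17 (SE, adjusted p = 0.0215 by limma), and a further probe set passed at 1.08. Both were lost without ZT15 replicate 2 or 3 or any ZT3 mouse. The stress-inducible Hspb1 (1.00, adjusted p = 0.129), Dnajb1 (0.74, 0.0962) and Hspa1b (0.93, 0.258) were higher with separate groups and were all highest in ZT15 replicate 3. The median of the list was 0.18, and 0.09 without that mouse. Among glucocorticoid-responsive genes, whose hormone peaks near the onset of activity in mice, Per1 passed and Sgk1 (0.84), Tsc22d3 (0.53) and Fkbp5 (0.33) did not (adjusted p = 0.205, 0.169 and 0.403). Of these 28 genes 1 passed (0.322% of all genes) and 10 were higher at an unadjusted p under 0.05 (10.9%). The median was 0.24, or 0.14 without ZT15 replicate 3.

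Housekeeping lists had small differences. The medians were 0.14 for 70 subunits of the respiratory chain and ATP synthase, 0.14 for 41 ribosomal proteins, 0.16 for 35 proteasome subunits and 0.08 for 18 aminoacyl-tRNA synthetases, with 0 called in each, beside 0.07 and 0.322% called for all genes. Higher by any amount were 61 of the 70 respiratory, 38 of the 41 ribosomal and 32 of the 35 proteasome genes, against 65.4% of all genes. After quantile normalization the medians of these 3 lists were 0.02, 0.03 and 0.05. Without ZT3 replicate 1 the first 2 were 0.24 and 0.25, and without ZT3 replicate 3 the first 3 were 0.09, 0.07 and 0.08. Of 25 genes of glycolysis and glucose uptake, Pfkfb3 passed, the enzyme that makes the allosteric activator of phosphofructokinase. It measured 7.34, 7.33 and 7.38 at ZT3 and 7.91, 8.01 and 8.35 at ZT15 (0.74 ± 0.13, SE, adjusted p = 0.0416). The glucose transporter Slc2a1 differed by 0.63 (adjusted p = 0.0586), while the enzymes of the pathway itself, such as Ldha, Pgk1 and Aldoa, gave 0.03, 0.04 and 0.03. Of 24 genes of cholesterol synthesis and uptake, the oxysterol-binding protein gene Osbpl3 passed with 2 of 3 probe sets on the array (0.83 and 1.24), and the synthesis enzymes Hmgcs1 (0.09) and Sqle (0.06) did not.

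For synaptic and excitability genes the medians were near that of all genes, 0.07. They were 0.07 for 32 glutamate receptor and scaffold genes, 0.06 for 15 GABA genes, 0.10 for 31 potassium channels and 0.02 for 14 neuropeptides. Of these 92 genes 0 passed, beside 0.322% of all genes, a share under 1 gene in a list of this size. The potassium channel modifier Kcns2 was the member with the lowest difference, -0.71. For RNA-binding and splicing factors, 0 of 30 passed, with Tra2a (0.55), Clk1 (0.58) and Srsf3 (0.37) on the higher side, a difference of 0.15 in the cold-inducible Cirbp, and a median of 0.16. Among 45 histone modifying enzymes the methyltransferase Kmt2a (Mll1) passed, with 9.10, 9.07 and 9.11 at ZT3 and 9.73, 9.70 and 9.65 at ZT15. Its difference of 0.60 ± 0.10 (SE, adjusted p = 0.037 by limma) rested on narrow groups, and its second probe set gave 0.63 (adjusted p = 0.057). At an unadjusted p under 0.05 the list had 15 higher and 0 lower genes (10.9% and 2.5% of all genes), and the median was 0.15, or 0.09 without ZT15 replicate 3. Among the 15 were the demethylase Kdm6b (1.01, adjusted p = 0.212) and the deacetylase Sirt1 (0.53, 0.18).

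**Figure D4:**
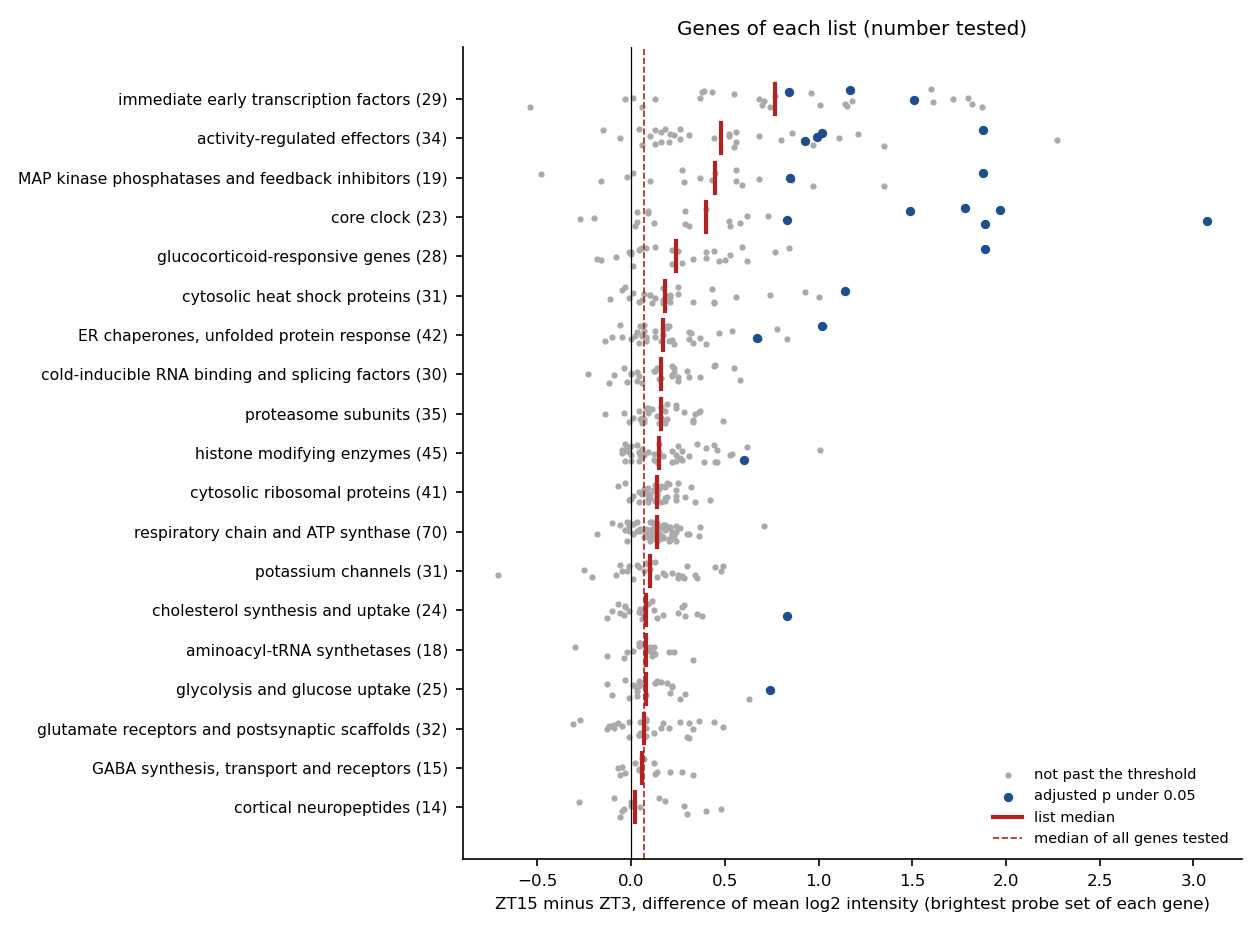
Each point is a gene, placed by its difference ZT15 minus ZT3 in mean log2 intensity on the x axis, in 19 lists ordered by their median (red bar). Blue points passed an adjusted p of 0.05, and the dashed line is the median of all 11791 genes, 0.07. The clock, activity and MAP kinase inhibitor lists carry most of the blue points and the 4 highest medians, 0.40 to 0.77. A gene can be in more than 1 list, as Dusp4 is. The lists were made with earlier results of these data known, so this order is description.

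Outside these lists 22 further genes rose, with adjusted p values of 0.015 to 0.0494, and each lost its call without 2 to 11 of the 12 arrays. In signaling, the AMPK-related kinases Nuak1 (0.66) and Sik2 (0.61), the tyrosine phosphatase Ptpn1 (0.86), the pseudokinase Prag1 (0.82), the Notch inhibitor Numb (0.55) and the somatostatin receptor Sstr2 (0.71) passed. Sstr2 measured 7.91, 7.75 and 7.91 at ZT3 and 8.52, 8.60 and 8.56 at ZT15, whereas its ligand Sst differed by -0.09. In metabolism, the mitochondrial alanine aminotransferase Gpt2 (1.00), the coenzyme Q-binding Coq10b (1.05) and the collagen prolyl hydroxylase subunit P4ha1 (1.09) rose.

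Cyclin D2 (Ccnd2) rose by 0.95 on 1 of its 7 probe sets, with 0.22 to 0.96 on the others. Chromatin and nuclear genes were Cdyl2 (1.03), Gse1 (0.53), Zmym1 (1.73) and the nucleoporin Ahctf1 (0.92). Zmym1 had the largest difference of these, from 6.85, 6.89 and 6.15 to 8.16, 8.50 and 8.42, and its call was lost without any of these 6 mice and without ZT9 or ZT21 replicate 2. The ubiquitin ligase Trim9 (0.63) and the deubiquitinase Otub2 (0.69), the membrane protein Vasn (1.36), the ciliary protein Cys1 (1.14), the aminopeptidase Aopep (0.57), Ankrd33b (0.75) and Mcf2l (0.57) made up the rest with Mir124a-1hg (0.64), the host transcript of a neuronal microRNA. The mature microRNA was not measured here.

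Myelin basic protein (Mbp) passed with 1 of its 8 probe sets, and not with the others. The called probe set measured 9.20, 9.03 and 9.10 at ZT3 and 9.82, 9.82 and 9.78 at ZT15, a rise of 0.70 ± 0.08 (SE, adjusted p = 0.0065 by limma). The other 7 gave 0.04 to 0.89, with adjusted p values of 0.117 to 0.873, and the brightest gave 0.14. Several other calls also rested on part of a gene's probe sets, such as Ahctf1 (-0.05 to 0.45 on the others), Gpt2 (0.19 to 0.79), Trim9 (0.09 to 0.27), Sik2 (-0.03) and Aopep (-0.13 and -0.06).

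The probe sets that rose were sorted into kinds by their levels at ZT9 and ZT21, and the sorting was not tested. Since the ZT15 and ZT3 values chose these probe sets, a high ZT15 or low ZT3 mean is part of the choice and is given as description. The mean was highest at ZT15 for 48 of the 54, at ZT9 for 5 and at ZT21 for 1, and lowest at ZT3 for 44, at ZT9 for 8 and at ZT21 for 2. Taking halfway between the ZT3 and ZT15 means as a mark, 13 probe sets were past it at both ZT9 and ZT21, among them those of Per1, Per2, Ciart, Bhlhe40, Dbp, Nr4a3, Coq10b and Sstr2. For these ZT3 was the low point of the day.

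Past halfway at ZT21 but not at ZT9 were 18 probe sets. Among them were all called probe sets of Ier5, Sbk1, Spred2 and Dnajb5 and those of Jdp2, Trim9 and Gse1. None passed for ZT21 minus ZT9 (lowest adjusted p = 0.201 by limma, Trim9). The margin was small for the brighter called probe set of Spred2, which averaged 10.57 at ZT9, 10.70 at ZT21 and 11.11 at ZT15. Gse1, a chromatin co-repressor component, averaged 8.97 at ZT3, 9.03 at ZT9, 9.49 at ZT15 and 9.44 at ZT21. Past halfway at ZT9 alone were 4 probe sets (Gpt2, Mir124a-1hg, Zmym1 and Ccnd2).

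The remaining 19 were past it at neither time. They held all called probe sets of Hspa5, Creld2, Xbp1 and Osbpl3 and those of Cry1, Camk1g, Dusp4, Pfkfb3, Kmt2a and Otub2. Some lay just under the mark, such as Cys1, with means of 6.25 at ZT3, 6.76 at ZT9, 7.38 at ZT15 and 6.80 at ZT21. Hspa5 was lower at ZT9 (11.47) and ZT21 (11.59) than at ZT3 (11.87) and highest at ZT15 (12.54). Otub2 was 6.09, 6.10 and 6.08 at ZT3, ZT9 and ZT21 and 6.78 at ZT15.

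**Figure D5:**
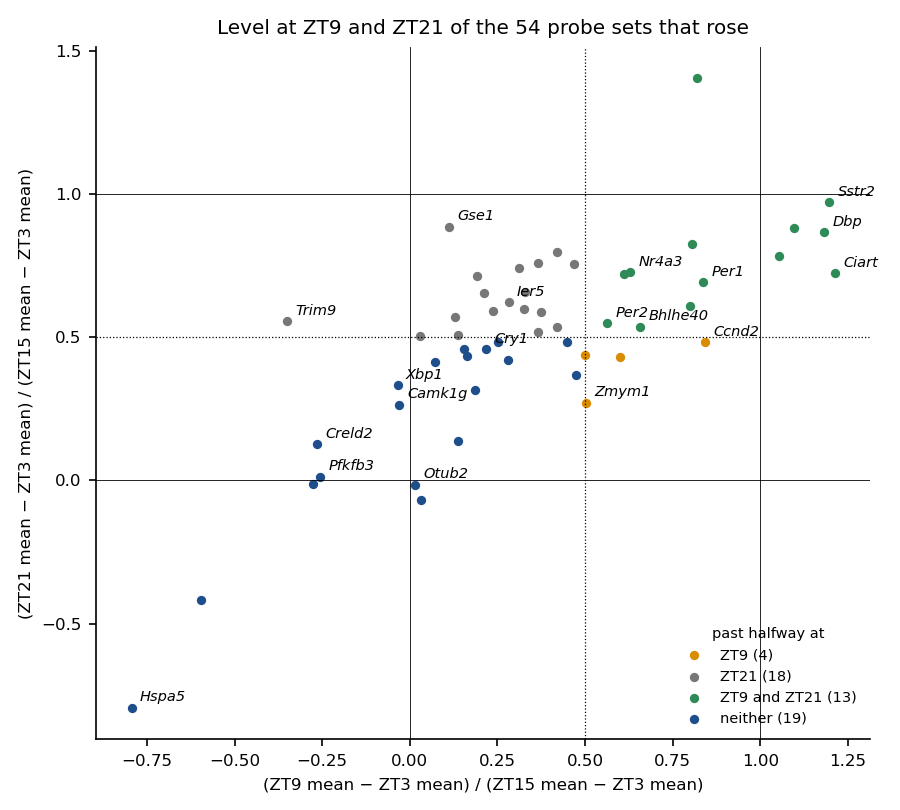
Each point is 1 of the 54 probe sets, placed by how far its ZT9 mean (x axis) and ZT21 mean (y axis) lay between the ZT3 mean (0) and the ZT15 mean (1). Dotted lines mark halfway, and colors give the 4 kinds: 13 past it at both times, 18 at ZT21, 4 at ZT9 and 19 at neither.

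A further pair of time points 12 h apart, ZT21 and ZT9, shares no array with ZT15 and ZT3. There 1 probe set was higher (0.00407% of those tested) and 0 lower at an adjusted p of 0.05. It was the brightest at ZT15 of the 6 for Homer1, which averaged 8.04 at ZT9, 10.24 at ZT21, 10.56 at ZT3 and 11.41 at ZT15. Its ZT9 mice, at 8.32, 7.95 and 7.87, were far below all others (ZT21-ZT9 2.20 ± 0.17, SE, adjusted p = 0.000519 by limma). Of the 54 probe sets 37 were higher at ZT21 than at ZT9, beside 43.9% of all probe sets tested, with a median of 0.15 and a range of -0.87 to 0.57, and 0 passed (lowest adjusted p = 0.201, Trim9). By gene, 46.4% were higher at ZT21 than at ZT9. In the core clock list the median was -0.10 for ZT21 minus ZT9.

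Tested directly, the 2 differences were unequal for 6 probe sets (0.0244%), those of Dbp (2), Per2, Ciart, Bhlhe40 and Cldn5, or 5 genes by their brightest probe set (0.0424%). Cldn5, the claudin of tight junctions in brain endothelium, was the 1 whose difference between ZT15 and ZT3 was the lower. It measured 9.09, 9.00 and 8.82 at ZT3 and 8.18, 8.47 and 8.54 at ZT15, a difference of -0.57 ± 0.16 (SE, adjusted p = 0.178), against 1.06 from ZT9 to ZT21. The other endothelial markers tested differed by -0.21 (Kdr) to 0.32 (Flt1) between ZT15 and ZT3.

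No lower level at ZT15 passed the threshold, and at an unadjusted p under 0.05 there were 658 lower probe sets. The 12 genes with the largest differences toward lower values, among those at an unadjusted p under 0.01 with separate groups, were the kinase Hunk (-0.88), the repressor Klf11 (-0.82), the PI3-kinase regulatory subunit Pik3r1 (-0.81), Serpinb9 (-0.79), Lactb2 (-0.79), the deubiquitinase Usp3 (-0.79), the oligodendrocyte protein Opalin (-0.78), Sh2d3c (-0.78), Nabp1 (-0.78), Rflnb (-0.76), the lysyl hydroxylase Plod2 (-0.76) and Gm21953 (-0.75). Hunk measured 8.69, 8.80 and 8.61 at ZT3 and 7.86, 7.57 and 8.02 at ZT15 (adjusted p = 0.141). Opalin went from 8.84, 8.63 and 8.73 to 8.13, 8.07 and 7.66, and its second probe set gave -0.08. The myelin genes Mog (0.09), Mag (0.13) and Mobp (0.11) were slightly on the other side. Each of the 12 is read by 1 probe set. Other probe sets of the same gene reached -0.02 for Usp3, 0.11 for Nabp1 and -0.33 for Pik3r1. They reached -0.22 for Lactb2 and -0.23 for both Rflnb and Plod2.

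Sh2d3c, an adaptor of integrin signaling, came nearest to the threshold of these 12. Its ZT3 mice measured 7.98, 8.05 and 7.89 and its ZT15 mice 7.48, 6.86 and 7.24, a difference of -0.78 ± 0.16 (SE, adjusted p = 0.0683 by limma). With arrays centred on their medians the difference was -0.86 and passed (0.0437), and so did that of Jun above, of Slc7a4 (-0.59) and of the unnamed probe set 1443707_at (-0.60). Without 1 array, at most 1 probe set passed as lower, namely Sh2d3c without ZT15 replicate 1, Usp3 without ZT15 replicate 2, Klf11 without ZT21 replicate 2 and Rflnb without ZT9 replicate 1.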

How the data were processed

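Tissue RNA of single mice was measured on 12 Affymetrix Mouse430_v2 arrays, 3 per time point. The authors scanned the arrays and deposited 1 table of GCRMA values, which are background-corrected, quantile-normalized intensity summaries per probe set on a linear scale. Here the 64 control probe sets were dropped, the remaining 45037 were put on the log2 scale, and the brightest 54.5%, by the mean over the 12 arrays (at least 4.87), were tested. Their number is the one the study kept by detection calls, which were not used here. Of the 45037 probe sets, 34945 had 1 gene symbol in the platform annotation, 932 several and 9160 none, and 34741 were matched to RefSeq by gene ID.

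A linear model with 4 time-point means was fitted to all 12 arrays in limma 3.58.1 (R 4.3.3), in place of the permutation method SAM of the study. Moderated statistics of ZT15 minus ZT3 were adjusted by Benjamini-Hochberg over all tested probe sets. The number of arrays, 3 per group, limits the precision. In simulated data of this size, 73 of 100 probe sets changed by 1 log2 unit and 20 of 100 changed by 0.5 were recovered, with 7 false calls. The simulated noise was independent between probe sets and lacked the shared variation of the real arrays. These figures may therefore not carry over to the real arrays. Tables were made with pandas 2.3.3 under Python 3.11.15, with numpy 2.4.6, and figures with matplotlib 3.10.9.

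Genes were named when a probe set passed 0.05, when they were among the 12 largest differences toward lower values, when they differed from ZT21-ZT9, or as members of gene lists. In the lists up to 5 genes with the smallest p were to be named, and further members were added for contrast. In list counts a gene is read by its brightest probe set. The members and lists were chosen with earlier results of these data known, so the list counts are description and not independent support. Alternatives changed the arrays fitted, normalization, filter, prior, array weights, replicate block and scale, and left out each array in turn.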

Additional observations from a re-analysis of the deposited data

Results flagged for a closer look

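For 6 probe sets the difference between ZT15 and ZT3 was unlike that between ZT21 and ZT9 in a direct test by limma, on 3 mice per time point. For Per2 the difference of differences was 3.10 (adjusted p = 0.00213), with -0.03 between ZT21 and ZT9. For the 2 Dbp probe sets it was 2.11 and 2.40 (adjusted p = 0.0013 and 0.00317), with -0.50 and -0.42, and for Ciart it was 2.65 (adjusted p = 0.00317), with -0.87. These 4 were kept without each of the 12 arrays in turn, at adjusted p values up to 0.0219.

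For Bhlhe40 it was 1.66 (adjusted p = 0.0438), with -0.17 between ZT21 and ZT9, and the call was lost without any 1 of 9 of the 12 arrays, at adjusted p values up to 0.147. These were all ZT3 and ZT15 arrays, ZT9 replicates 2 and 3 and ZT21 replicate 3. For Cldn5 it was -1.63 (adjusted p = 0.0488), with 1.06 between ZT21 and ZT9, and the call was lost without any 1 of 10 of the 12 arrays, all but ZT9 replicates 1 and 3, at up to 0.238. The ZT9 mice measured 8.58, 8.32 and 7.91 for Cldn5 and the ZT21 mice 9.28, 9.27 and 9.43.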

How the results depend on the processing

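The 54 probe sets kept their direction under each setting that measured them (45 with the 15000 brightest), which their separate groups fixed in advance for most settings. The count of higher calls was not stable. It was 1 with the 6 arrays of ZT3 and ZT15 alone (7 when these were also centred on their medians, a setting chosen after seeing the data), 12 with no moderation, 30 with no filter, 114 with the 15000 brightest probe sets and 858 with array weights. Lower calls numbered 0, but 2 with the 15000 brightest, 4 with median centring, 6 with quantile normalization and 162 with array weights. Leaving out 1 array gave 7 to 100 higher and 0 to 1 lower calls, and 44 to 1048 and 0 to 158 at an adjusted p of 0.20. The probe sets that differed from ZT21-ZT9 numbered 6, but 1 with no moderation, 2834 with array weights, 36 without ZT9 replicate 1, ZT15 replicate 3 and ZT21 replicate 3 together (chosen after seeing the data), and 4 to 8 without 1 array.

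With the replicate number as a block 25 were higher, 0 lower and 4 differed from ZT21-ZT9. Same-numbered arrays deviated with correlations of -0.498 to 0.487, so the numbers were not taken as pairs. The causes of these shifts were not tested. List medians without 1 array ranged from 0.30 to 0.46 for the core clock and 0.48 to 1.21 for immediate early factors. No median of the blood and olfactory bulb markers could be had with the 15000 brightest.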
